A study of Mus musculus with 24 samples.

Results

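The regions described here are 11039 binding sites of LSD1 (lysine-specific demethylase 1, gene Kdm1a) that lie away from gene starts and were called in differentiating 3T3-L1 cells labelled LSD1 overexpression, at day 7, and in none of the other LSD1 peak lists. They were selected on the peak calls by a rule with 2 conditions. A peak of the day 7 list of the LSD1 label had to stay more than 1 kb from every RefSeq transcription start site (TSS) of the mouse build mm10, and had to share no base with a peak of the lists for control day 0, control day 7 or LSD1 label day 0. The members made up 40.6% of the 27221 peaks of their own list, and the 4 LSD1 lists together held 52545 peaks. Since the calls chose them, their absence from the other lists and their distance from gene starts are descriptions and carry no test.

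3T3-L1 is a mouse embryo preadipocyte line that turns into fat cells when confluent cultures receive a hormone mix. The cultures were grown between passages 13 and 18, and day 0 is confluence. The mix held the PPARγ agonist rosiglitazone (10 µM), the phosphodiesterase inhibitor isobutylmethylxanthine (500 µM), the glucocorticoid dexamethasone (1 µM) and insulin (10 µg/ml), in medium with 10% serum that was changed at day 3. There were 4 LSD1 ChIP-seq samples, 1 each for control and LSD1 label at days 0 and 7, 2 Nrf1 ChIP-seq samples (days 0 and 7), and 12 RNA-seq libraries, 3 biological replicates for each of the 4 LSD1 groups. No more is said in the labels of how the LSD1 line was derived or whether its replicates are separate lines, so an effect of LSD1 and another difference between the lines cannot be told apart. The genotype given for the Nrf1 day 7 sample and its title disagree, so Nrf1 peaks were used by day only.

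LSD1 removes methyl groups from mono- and dimethylated lysine 4 of histone H3, the mark of active and primed regulatory DNA, and usually sits in complexes with the corepressor CoREST and histone deacetylases, or with NuRD. Binding sites far from gene starts are often enhancers, stretches of DNA that bind tissue factors and act on a gene start some distance away. In fat cell differentiation the leading enhancer factors are C/EBPβ and the glucocorticoid receptor early, then C/EBPα and PPARγ, which pairs with RXRα on a DR1 element. AP-1, the Fos and Jun dimer, marks many enhancers of fibroblasts and preadipocytes.

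The sequences below are the central 200 bases of members that the results turn on, read from the plus strand of the mm10 reference. The first 3 show what a C/EBP match (TTGCNNAA on either strand, in capitals) looks like in members at fat cell genes: the highest-scoring members with these letters at Scd1, Pparg and Adipoq. They were picked for those letters, after their values were seen, and do not stand for all members there. C/EBP letters were in 2 of 10 members at Scd1, 2 of 2 at Pparg and 1 of 4 at Adipoq, and the top-scoring members at Scd1 (2249.4) and Adipoq (363.42) are others. Scd1 makes monounsaturated fatty acids, Pparg is the lead factor of the fat cell, and Adipoq is the hormone adiponectin.
Scd1, intron, chr19:44402841-44403040, score 919.71: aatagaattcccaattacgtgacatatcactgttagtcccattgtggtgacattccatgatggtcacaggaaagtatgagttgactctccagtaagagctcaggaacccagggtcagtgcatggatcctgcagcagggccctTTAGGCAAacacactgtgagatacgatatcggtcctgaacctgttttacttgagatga
Pparg, intron, chr6:115424374-115424573, score 327.53: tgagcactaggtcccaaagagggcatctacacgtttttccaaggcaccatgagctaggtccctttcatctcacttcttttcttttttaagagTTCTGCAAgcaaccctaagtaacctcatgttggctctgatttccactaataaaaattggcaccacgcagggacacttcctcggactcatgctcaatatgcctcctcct
Adipoq, intergenic, chr16:23144438-23144637, score 67.18: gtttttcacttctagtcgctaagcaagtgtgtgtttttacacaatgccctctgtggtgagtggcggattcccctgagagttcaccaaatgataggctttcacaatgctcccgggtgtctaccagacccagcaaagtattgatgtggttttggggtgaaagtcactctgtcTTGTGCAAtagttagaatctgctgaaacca
At Lpin1, a phosphatidate phosphatase of triglyceride synthesis and the gene in the RNA tables with the second most members, the highest-scoring member lay in an intron and held no match to the C/EBP, AP-1, glucocorticoid receptor or DR1 letters.
Lpin1, intron, chr12:16587081-16587280, score 375.0: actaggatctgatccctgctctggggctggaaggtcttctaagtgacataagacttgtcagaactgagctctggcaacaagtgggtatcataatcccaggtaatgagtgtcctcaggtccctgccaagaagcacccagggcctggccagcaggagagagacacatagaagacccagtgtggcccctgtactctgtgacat
The highest-scoring member with a DR1 match (capitals) lay in an intron of Slc1a5, a glutamine transporter.
Slc1a5, intron, chr7:16785928-16786127, score 494.09: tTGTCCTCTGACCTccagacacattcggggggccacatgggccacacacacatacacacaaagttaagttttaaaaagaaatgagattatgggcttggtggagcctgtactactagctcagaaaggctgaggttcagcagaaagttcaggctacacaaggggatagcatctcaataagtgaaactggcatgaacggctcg

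The members with the very highest scores looked different, and 6 of them are shown for that reason. The top member by score lay in an intron of 2610005L07Rik and held AP-1 letters (TGANTCA, capitals) at 2 places, and its central 200 bases had 7 other near-identical copies in the genome. The next, nearest to 2700054A10Rik, is a short-period repeat of which 93.0% is soft-masked in the reference. The best member at Gm40469 had 5 other copies.
2610005L07Rik, intron, chr8:20411439-20411638, score 3118.93: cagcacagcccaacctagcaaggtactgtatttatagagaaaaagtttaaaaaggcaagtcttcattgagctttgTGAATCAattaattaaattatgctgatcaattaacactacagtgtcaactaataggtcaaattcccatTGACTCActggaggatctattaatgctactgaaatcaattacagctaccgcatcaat
2700054A10Rik, intergenic, chr17:13590555-13590754, score 3112.35: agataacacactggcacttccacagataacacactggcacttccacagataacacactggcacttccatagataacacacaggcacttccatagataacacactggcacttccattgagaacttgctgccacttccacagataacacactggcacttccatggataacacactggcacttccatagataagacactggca
Gm40469, intergenic, chr8:20583042-20583241, score 2456.12: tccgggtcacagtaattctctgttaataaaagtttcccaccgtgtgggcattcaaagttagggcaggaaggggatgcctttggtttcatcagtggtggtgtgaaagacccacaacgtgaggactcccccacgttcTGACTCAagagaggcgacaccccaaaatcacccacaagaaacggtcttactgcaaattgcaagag
The best members with C/EBP letters (nearest to Lin7a) and with glucocorticoid receptor letters (ACANNNTGT, in an intron of Mdga2) both had the score 3100, and all and 85.5% of their central bases, respectively, were soft-masked as repeats. The member near Lin7a was 29621 bases wide.
Lin7a, intergenic, chr10:107242124-107242323, score 3100: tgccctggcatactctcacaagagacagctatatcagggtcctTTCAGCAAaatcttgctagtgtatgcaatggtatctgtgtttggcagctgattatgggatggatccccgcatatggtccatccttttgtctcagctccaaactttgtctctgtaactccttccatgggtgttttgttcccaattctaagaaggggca
Mdga2, intron, chr12:67059398-67059597, score 3100: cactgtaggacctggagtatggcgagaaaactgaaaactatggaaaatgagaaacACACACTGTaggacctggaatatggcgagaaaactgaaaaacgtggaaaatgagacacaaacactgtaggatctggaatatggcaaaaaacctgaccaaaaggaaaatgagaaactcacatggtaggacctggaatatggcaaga
The best member that overlapped an Nrf1 peak, nearest to Col19a1, matched the mitochondrial genome.
Col19a1, intergenic, chr1:24613741-24613940, score 3100: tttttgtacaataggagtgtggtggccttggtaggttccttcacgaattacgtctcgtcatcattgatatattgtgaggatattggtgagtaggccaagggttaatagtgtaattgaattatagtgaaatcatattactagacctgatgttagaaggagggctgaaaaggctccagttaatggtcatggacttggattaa

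The score is the authors' own value per peak, and its lists start near 50. The members were mostly low-scoring and narrow. Their median score was 83.0 (quartiles 60.7 and 129.8), against 121.2 for the 3434 distal peaks of the same list that overlap another LSD1 list and 116.1 for the 2299 promoter peaks found in that list only. A score of at least 100 was reached by 4140 members (37.5%), against 59.4% of the shared distal peaks, while 2648 members (24.0%) scored under 60. At the other end, 68 members (0.616%) had 3100 or more, a value at which many peaks tie. The median width was 514 bases, against 665.5 for shared distal peaks and 612 for promoter peaks. With 1 sample per list these peak comparisons have no replicate check.

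**Figure D1:**
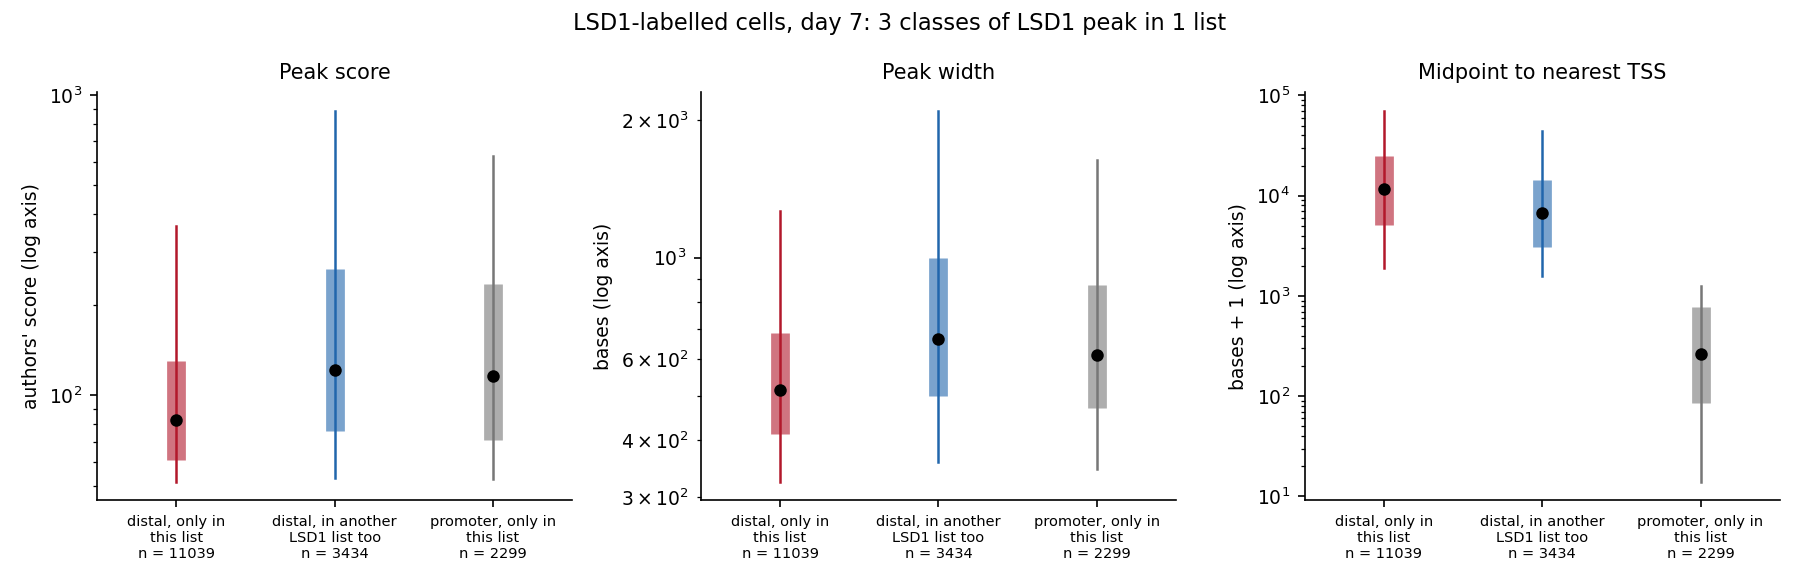
Authors' peak score, peak width in bases and distance from peak midpoint to the nearest TSS in bases, all on log axes, for 3 classes of peak of the day 7 list of the LSD1 label. Points are medians, boxes span the quartiles and lines the central 90% of peaks; the 11039 members have the lowest median score (83.0) and width (514 bases) and the greatest median distance (11582 bases).

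The edges of the rule fell inside a smooth range. The members nearest to a TSS ended 1003 bases away, the peaks just outside reached to 997. The members nearest to another LSD1 peak touched it at a gap of 0 bases, the peaks just outside shared as few as 4 bases, and 767 members had a peak of another LSD1 list within 1 kb. The median gap to the nearest peak of another list was 21815 bases. The lists differ in size, with 3024 peaks for control day 0, 8303 for control day 7 and 13997 for LSD1 label day 0. ChIP read depth is not given in the sources used here, so LSD1 being absent from a member and fewer peaks being called in the smaller lists cannot be told apart. The shared distal peaks overlapped the LSD1 label day 0 list in 3141 cases (91.5%), the control day 7 list in 772 and the control day 0 list in 214.

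Members lay mainly inside introns and far from gene starts. By their midpoints 5945 (53.9%) were intronic, 4186 (37.9%) intergenic and 908 (8.23%) exonic. Of the shared distal peaks 38.6% were intronic, 44.6% intergenic and 16.7% exonic. The median distance from midpoint to TSS was 11582 bases, against 6665.5 for shared distal peaks. More than 10 kb separated 6066 members (55.0%) from a TSS, against 35.8% of shared distal peaks, and 303 members (2.75%) lay beyond 100 kb.

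Of 13 motifs searched on both strands, C/EBP, AP-1 and CTCF letters were each in more than 5% of members and well above their share in the flanks. Against shared distal peaks, C/EBP differed most of these 3. C/EBP letters were in the central 200 bases of 1449 members (13.1%), against 7.77% of windows of equal length 2 kb away, 8.71% of shared distal peaks and 7.48% of 32809 RefSeq promoter windows. In shared distal peaks the share in their own flanks was 6.96%. By position, 4.02% of members had a C/EBP match starting in the 50-base bin just before the midpoint, against 2.30% in the bin farthest upstream. Shared distal peaks had 2.30% in that same central bin. Score made little difference: with members ordered by score and cut into 4 equal groups, from the lowest to the highest, the share with C/EBP letters was 12.2%, 13.1%, 14.2% and 13.0%.

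AP-1 letters were centred in both classes of distal peak. AP-1 letters were in 1316 members (11.9%) against 5.68% of flanks, and in 10.8% of shared distal peaks against 5.43% of theirs. Promoter peaks found in this list only had them in 5.66% of cases. Both C/EBP and AP-1 letters were in 187 members (1.69%).

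**Figure D2:**
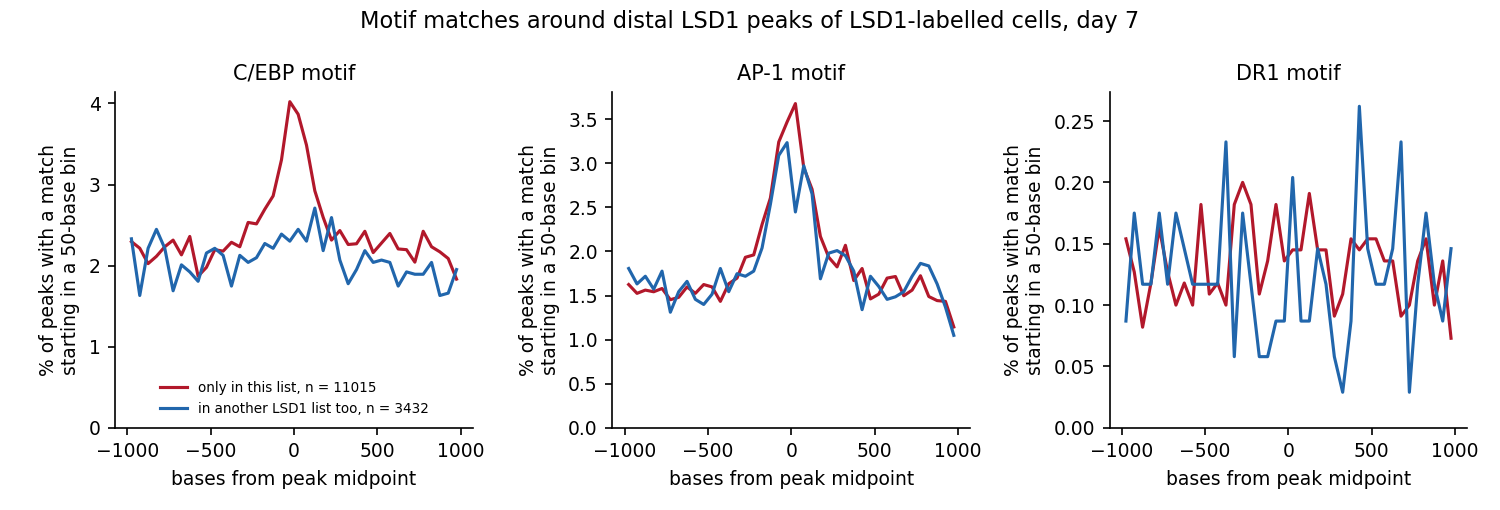
Percent of distal peaks of the day 7 list of the LSD1 label with a C/EBP, AP-1 or DR1 match starting in each 50-base bin, by distance in bases from the peak midpoint, for peaks only in this list and peaks in another LSD1 list too. The C/EBP line of the members peaks at 4.02% by the midpoint while that of the shared peaks stays near 2.30%; AP-1 lines peak in both, and the DR1 lines have no peak at the midpoint.

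The DR1 letters of PPARγ with RXRα did not mark these peaks. The search used 1 strict form (AGGNCANAGGNCA), and 60 members (0.544%) held it, against 0.440% of flanks, 0.437% of shared distal peaks and 0.299% of promoter windows. Glucocorticoid receptor letters were in 797 members (7.22%) against 6.58% of flanks and 5.10% of shared distal peaks. Letters of CTCF (CCNNNAGNNGGC), which anchors chromatin loops, were in 730 members (6.61%) against 3.19% of flanks. In shared distal peaks CTCF letters reached 6.20%. Letters of NFI (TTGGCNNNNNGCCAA), a partner of C/EBP factors in fat cells, were rare, in 12 members, 2 of 22043 flank windows and 0 shared distal peaks. GATA letters (AGATAA) were less frequent in members (7.28%) than in their flanks (10.5%). A letter match is a description of sequence, and no factor other than LSD1 and Nrf1 was measured.

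The members seldom held the letters typical of promoters. The SP/KLF box GGGCGG was in 539 members (4.88%), 11.2% of shared distal peaks, 27.5% of promoter peaks found in this list only and 31.0% of RefSeq promoter windows. The letters of NRF1 (CGCNTGCG), a factor of genes for mitochondrial proteins, were in 57 members (0.516%) against 1.54% of shared distal peaks. Mean GC content was 50.2% in members, 46.1% in their flanks, 52.6% in shared distal peaks and 58.1% in the promoter peaks. The soft-masked share of bases was 19.5% in members and 27.3% in flanks. Overlap with Nrf1 peaks was rare too: 102 members (0.924%) overlapped a peak of either Nrf1 list, 82 at day 0 and 27 at day 7, against 99 (2.88%) of the shared distal peaks and 112 (4.87%) of the promoter peaks.

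The members were spread unevenly over the genome. They averaged 4.05 per Mb, with 10.1 per Mb on chromosome 8, 7.03 on chromosome 17 and 6.98 on chromosome 19, and only 0.678 on X and 0.305 on Y. The shared distal peaks were uneven too, with 2.23 per Mb on chromosome 8, 2.87 on 17, 2.47 on 19, 0.292 on X and 0.065 on Y. Of 2737 stretches of 1 Mb, 1635 held a member, with a median of 4, and 43 stretches with at least 30 members held 1967 of them (17.8%). The fullest was chromosome 8 from 20 Mb, with 179 members. In it the list had 195 peaks, against 0 for each control list and 2 for LSD1 label day 0. The next were chromosome 5 from 15 Mb (83), chromosome 8 from 69 Mb (73), chromosome 1 from 85 Mb and chromosome 2 from 177 Mb (70 each), chromosome 8 from 70 Mb (64) and chromosome 16 from 35 Mb (Hacd2 and Adcy5, 63). Among the less full ones, named for their genes after the values were seen, were chromosome 13 from 37 Mb (Rreb1, 40), chromosome 2 from 27 Mb (Rxra, 37) and chromosome 5 from 17 Mb (Cd36, 37).

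Near-identical sequence elsewhere in the genome was more frequent in members than in shared distal peaks. A further copy of the central 200 bases, at 95% identity or more over at least 90% of the window, was found for 1208 of 11038 members (10.9%). It was found for 108 of 3434 shared distal peaks (3.15%) and for 210 of 2299 promoter peaks found in this list only (9.13%). Of members with a score under 100, 8.77% had a copy, and of those between 1000 and 3100 and at 3100 or more, 44.9% (44 of 98) and 44.1% (30 of 68). In the 43 full stretches the share was 29.2%, against 6.98% outside them. In the stretch of chromosome 8 from 20 Mb it was 173 of 179 (96.6%). A read from such a window may map to several places, and how multiply mapped reads were treated is not given in the sources used here. The part of copies in these peaks was not tested. A match to the mitochondrial genome was found for 7 members, 3 of them among the 68 with a score of 3100 or more, and for 1 shared distal peak.

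**Figure D3:**
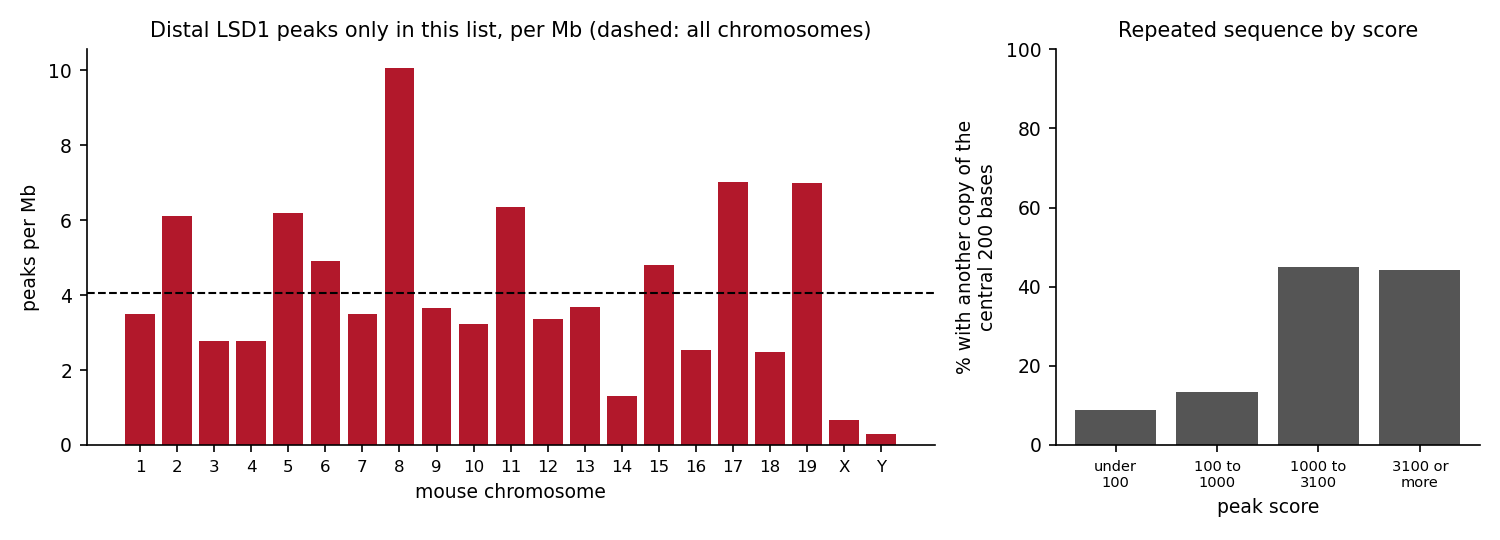
Left, members per Mb of each mouse chromosome, with the genome mean as a dashed line at 4.05; right, percent of members whose central 200 bases have another copy in the genome, by authors' score. Chromosome 8 stands highest at 10.1 per Mb, and the copy share goes from 8.77% under a score of 100 to 44.1% at 3100 or more.

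RNA was not used to choose the peaks. The 12 libraries held 27512273 to 37565527 counts each, and 13356 genes passed the filter on low counts. Kdm1a itself was measured at 79.0, 86.3 and 84.1 CPM (counts scaled to a common library size) in control day 0, at 66.1, 67.6 and 74.5 in control day 7, at 89.4, 104.2 and 99.0 in LSD1 label day 0 and at 54.3, 55.4 and 54.4 in LSD1 label day 7. At day 7 the libraries labelled LSD1 lay below all control libraries (log2 difference -0.34 ± 0.10 SE, adjusted p = 0.00751 by edgeR's quasi-likelihood test). At day 0 they lay above (0.23 ± 0.10 SE, adjusted p = 0.0969), which did not pass. The Kdm1a counts at day 7 thus go against the label. They are those of the mouse RefSeq transcript with the highest mean count. The labels do not say how the line was made, so whether these counts hold all LSD1 RNA is not known. Every direction below compares libraries labelled LSD1 with libraries labelled control. LSD1 label day 0 replicate 1 stood apart from the other replicates.

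Adipocyte markers were higher and fibroblast markers lower at day 7 than at day 0 in both lines, and the gap was wider in the LSD1 label. Summed over the adipocyte list, CPM ranged from 1035 to 1222 in control day 0, from 1097 to 1169 in LSD1 label day 0, from 15400 to 17350 in control day 7 and from 47350 to 51640 in LSD1 label day 7. The fibroblast list went the other way, with 69140 to 73590 and 36480 to 46070 at day 0, 24720 to 25730 in control day 7 and 6814 to 7680 in LSD1 label day 7. Some markers of other cell types moved with the groups as well. The summed CPM of bone and cartilage markers was 253 to 290 in control day 0, 222 to 256 in LSD1 label day 0, 117 to 153 in control day 7 and 34.4 to 38.9 in LSD1 label day 7. The sum of muscle markers was 3.81 to 4.92 in control day 0, 6.57 to 17.3 in LSD1 label day 0, 12.3 to 14.9 in control day 7 and 31.4 to 42.7 in LSD1 label day 7. Des alone was at 31.4 to 42.7 CPM in LSD1 label day 7. Macrophage markers summed to 16.0 to 21.6 in control day 0, 17.8 to 34.3 in LSD1 label day 0, 13.5 to 16.0 in control day 7 and 6.61 to 7.09 in LSD1 label day 7. Endothelial markers were low, at 1.69 to 1.92, 0.949 to 1.86, 0.416 to 0.695 and 0.725 to 1.21 in the same order. Adgre1 (of macrophages), Myod1, Myog and Myf5 (of muscle) and Acan (of cartilage) were at 0 counts. The part of these shifts in the results below was not tested, and in bulk RNA a change in the number of cells of a type and a change in RNA per cell cannot be told apart.

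Genes near the members were more often higher than genes at large. Each member was linked to the nearest TSS within 100 kb, which placed 10736 members at 5629 genes, 3618 of them in the count tables and 2834 tested. At day 7, 1111 of these 2834 (39.2%) were higher in the LSD1 label than in control, where 30.2% of all genes tested were. Lower were 856 (30.2%), where 33.4% of all genes were. The median log2 difference was 0.15 for linked genes and -0.05 for all genes tested. Of genes linked to shared distal peaks, 35.1% of 1418 were higher and 32.9% lower. For promoter peaks found in this list only, 36.5% of 1305 linked genes were higher and 35.1% lower. The list is of deposited calls of 1 sample, so these shares describe the linked genes and were not tested as a set.

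Linked genes also rose more often than genes at large over time, in both lines. From day 0 to day 7 in the LSD1 label 1247 linked genes (44.0%) rose, where 32.6% of all genes did, and 855 (30.2%) fell, where 37.2% did. In control 943 (33.3%) rose, where 23.7% of all did, and 656 (23.1%) fell, where 24.6% did. Genes linked to promoter peaks found in this list only rose in 40.3% of cases in the LSD1 label and 30.3% in control. For genes linked to shared distal peaks the shares that rose were 32.8% and 22.8%. These comparisons share libraries and are not independent of each other. Linked genes were more abundant, with a median of 48.8 CPM against 25.8 for genes not linked. Within the lowest, middle and highest tertile of CPM, 24.1%, 39.9% and 46.8% of linked genes were higher at day 7 in the LSD1 label. Of all genes tested 17.3%, 32.3% and 40.8% were. Lower were 35.8%, 27.6% and 28.9% of linked genes, against 41.6%, 30.6% and 28.1% of all genes tested.

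The share rose with the number of members at a gene. Of 1744 tested genes with 1 member 35.1% were higher at day 7 in the LSD1 label. The share was 42.5% of 769 genes with 2 to 3, 51.1% of 266 with 4 to 9 and 63.6% of 55 with at least 10. Lower were 30.8%, 30.8%, 25.9% and 23.6%. For day 7 minus day 0 the shares that rose went from 37.7% to 49.5%, 62.8% and 74.5% in the LSD1 label, and from 27.3% to 36.7%, 53.8% and 76.4% in control, the line whose peaks the rule excluded. In the highest CPM tertile 58.1% of genes with at least 4 members were higher at day 7 in the LSD1 label. The 55 genes with at least 10 members had a median log2 difference of 0.62 between labels at day 7, with 35 higher and 13 lower.

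**Figure D4:**
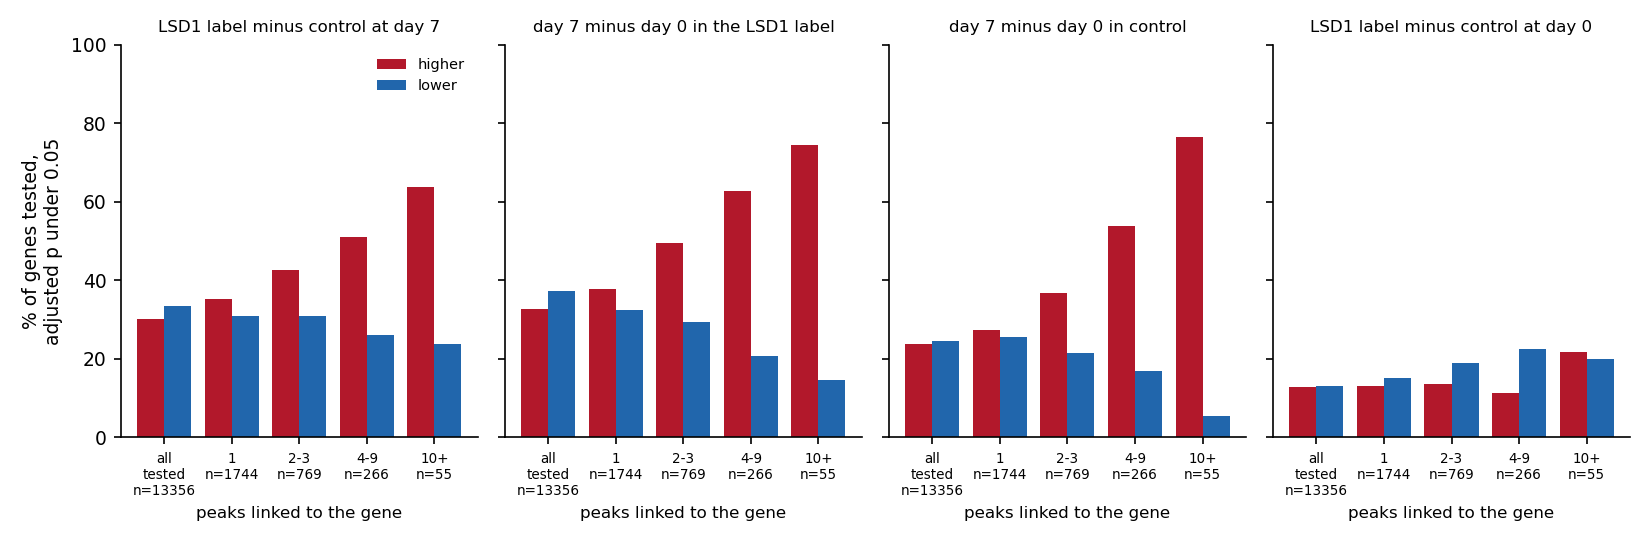
Percent of tested genes past an adjusted p of 0.05 (edgeR), higher or lower, in each of 4 comparisons, for all 13356 genes tested and for genes by number of linked members. The share higher goes up with the number of members in the first 3 comparisons, reaching 63.6%, 74.5% and 76.4% at 10 or more, and ranges from 11.3% to 21.8% at day 0.

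At day 0 the linked genes were lower in the LSD1 label more often than genes at large. In the LSD1 label 375 (13.2%) were higher than control, where 12.8% of all genes tested were, and 480 (16.9%) were lower, where 13.0% were. These shares rest on single libraries: without LSD1 label day 0 replicate 1 they were 22.3% and 29.3%, without control day 0 replicate 3 they were 8.20% and 11.1%, and without control day 0 replicate 1 the share higher was 8.63%. The shares of all genes in those fits are not given here.

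The genes with most members included enzymes and membrane proteins of fat storage. Hacd2, which dehydrates intermediates of very-long-chain fatty acid synthesis, had 50 members over 84.9 kb of chromosome 16 (35025218 to 35110151), 46 of them in introns, with scores from 50.29 to 430.98. Of the other lists, control day 7 had 2 peaks linked to Hacd2 in the same way and each day 0 list had 0. Its RNA stood at 80.95, 91.1 and 85.21 CPM in control day 0, 304.3, 277.8 and 287.9 in control day 7, 47.16, 41.08 and 39.87 in LSD1 label day 0 and 542.5, 535.3 and 529.8 in LSD1 label day 7. Thus Hacd2 was lower in the LSD1 label at day 0 and higher at day 7, with no overlap of replicates at either day. The log2 difference was -1.01 ± 0.10 SE at day 0 (adjusted p = 1.89e-05, edgeR) and 0.89 ± 0.10 SE at day 7 (adjusted p = 4.21e-06).

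Lpin1 had 32 members over 99.4 kb of chromosome 12 (16531454 to 16630804), with scores from 51.0 to 375.0, and 5 held C/EBP letters. Control day 7 and LSD1 label day 0 each had 1 peak linked to Lpin1. Lpin1 RNA was 23.95, 25.86 and 23.48 CPM in control day 0, 138.3, 121.6 and 134.7 in control day 7, 29.1, 19.04 and 15.99 in LSD1 label day 0, and 719.0, 732.5 and 708.5 in LSD1 label day 7. The day 7 groups were far apart (log2 difference 2.45 ± 0.18 SE, adjusted p = 1.09e-07, edgeR), while at day 0 they overlapped (-0.19 ± 0.17 SE, adjusted p = 0.44).

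Cd36, the fatty acid translocase, had 31 members over 125.1 kb of chromosome 5 (17772930 to 17898028). The 3 other LSD1 lists had 0 peaks linked to Cd36, though the gene was already at 966.4, 896.5 and 925.9 CPM in control day 7. In LSD1 label day 7 it was at 3869, 3667 and 3095 CPM, and at day 0 it stayed between 0.179 and 2.499 CPM in all 6 libraries. The day 7 difference was 1.93 ± 0.35 SE on the log2 scale (adjusted p = 0.000323, edgeR). None of the 31 held C/EBP letters, 4 held AP-1 letters and 3 glucocorticoid receptor letters. The top member there, 17774180 to 17779524, was 5345 bases wide with the score 3100.

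Dlc1 had 28 members over 334.8 kb of chromosome 8 (36568897 to 36903688), with a median score of 444.9, well above that of all members. Dlc1 was at 350.1, 298.8 and 321 CPM in control day 7 and at 1112, 1111 and 1016 in LSD1 label day 7 (1.74 ± 0.20 SE, adjusted p = 5.96e-06, edgeR).

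Many members did not always go with higher RNA. Rxra, the partner of PPARγ, had 25 members on chromosome 2 (27633581 to 27774227), and its RNA was 563.9, 478.4 and 562.6 CPM in control day 7 but 303.8, 337.7 and 370 in LSD1 label day 7 (log2 difference -0.67 ± 0.11 SE, adjusted p = 0.00011, edgeR). Pik3r1, the regulatory subunit of PI3 kinase, had 24 members on chromosome 13 (101682700 to 101848278) and was at 584.6, 481.3 and 530.2 CPM in control day 7 and 274.4, 254.5 and 204.2 in LSD1 label day 7 (-1.12 ± 0.17 SE, adjusted p = 9.58e-05). For both genes the LSD1 label replicates lay below all control replicates at day 7, yet above their own day 0 values. Gm40469 (31 members, 30 with another copy), Gm41918 (26) and A930028N01Rik (25) are not in the count tables.

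**Figure D5:**
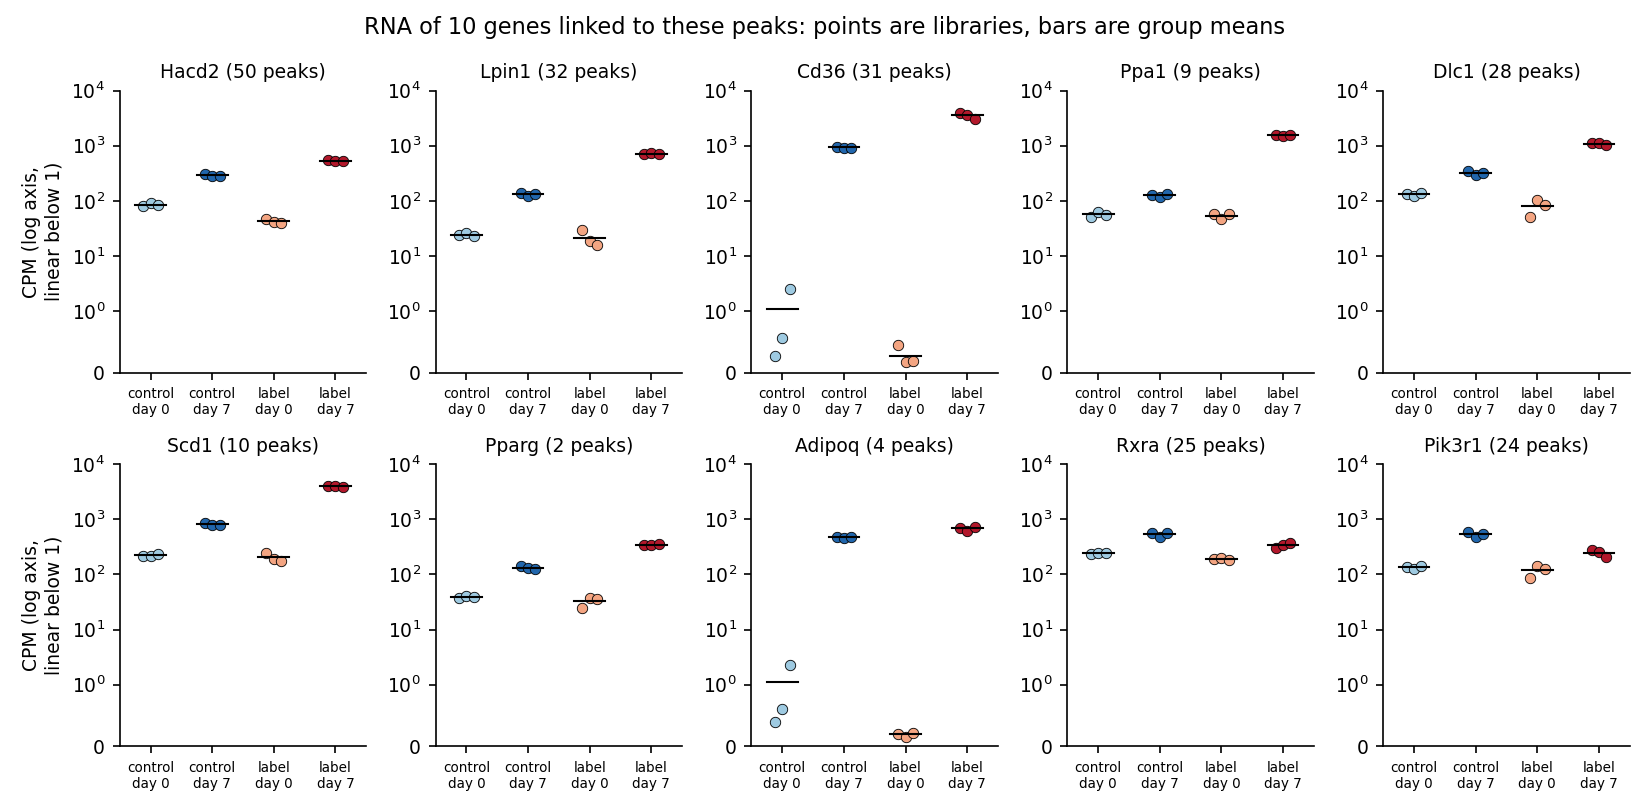
RNA of 10 linked genes in CPM in the 12 libraries (log axis, linear below 1), by group; points are libraries and bars group means. Hacd2, Lpin1, Cd36, Ppa1, Dlc1, Scd1 and Pparg are highest in LSD1 label day 7, Rxra and Pik3r1 are highest in control day 7, and Adipoq differs between the labels at day 7 by less than the test required.

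The lead factors and markers of the fat cell had fewer members. Pparg had 2, both in introns and both with C/EBP letters, on chromosome 6 (115423994 to 115448998). Its RNA was 139.1, 133.2 and 127 CPM in control day 7 and 336.9, 337.6 and 350.1 in LSD1 label day 7 (1.36 ± 0.13 SE, adjusted p = 1.73e-06, edgeR). Cebpa, its partner factor, had 0 members and a log2 difference of 1.18. Scd1 had 10 members over chromosome 19 from 44386953 to 44422981, 2 of them with another copy. Scd1 RNA was 862.1, 779.7 and 781.7 CPM in control day 7 against 4029, 3979 and 3765 in LSD1 label day 7 (2.28 ± 0.13 SE, adjusted p = 1.66e-08, edgeR).

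Adipoq had 4 members and 0 linked peaks in the other LSD1 lists. Its RNA, 471.8, 451.8 and 479.3 CPM in control day 7 and 683.7, 619.9 and 735.5 in LSD1 label day 7, did not overlap between groups, but the difference of 0.54 ± 0.28 SE did not pass (adjusted p = 0.107, edgeR). Without control day 0 replicate 3 it did (adjusted p = 0.00159), as it did without LSD1 label day 0 replicate 1 (adjusted p = 0.0397). Fabp4, the fat cell's fatty acid carrier, had 3 members and was at 4261, 3528 and 5261 CPM in control day 7 and 16140, 14010 and 11110 in LSD1 label day 7 (1.66 ± 0.25 SE, adjusted p = 8.64e-05). Plin1, which coats the lipid droplet, had 1 intronic member with a score of 251.76 and was at 273.4, 232.1 and 246 CPM against 917.2, 976.2 and 1085.

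Gene lists drawn up for this tissue differed in how often they were linked. Of all genes tested 21.2% had a member. Of the adipocyte program 17 of 25 tested genes did (68.0%). Tested or not, 18 genes of the list were linked, with 71 members, 31 of them at Cd36. Of the 17 tested, 15 were higher and 1 lower (Retn) at day 7 in the LSD1 label. All 17 rose from day 0 to day 7 in both lines. The fall of Retn, the hormone resistin (-1.45), did not pass under DESeq2 (adjusted p = 0.34), nor did the rise of Cfd, adipsin (adjusted p = 0.342). Among the 15 were Adig, a small fat cell protein (4.57), Agpat2 of triglyceride synthesis (2.58), G0s2, an inhibitor of fat breakdown (2.05), and Plin4 (1.31), given as log2 differences. The whole list had 22 higher and 1 lower of 25, so the linked genes did as the list did.

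Lipid synthesis was linked for 11 of 17 genes (64.7%), 8 higher and 0 lower at day 7 (11 and 1 of the whole list), among them Lpin1, Scd1 and Me1, malic enzyme (1.86). Oxidative metabolism was linked for 8 of 22 (36.4%), all 8 higher at day 7. These included the citric acid cycle enzymes Cs (1.84), Idh3a (1.88) and Mdh2 (1.89). All 22 genes of that list were higher, linked or not. Thermogenic genes were linked for 4 of 14 tested, 3 of them higher (10 of the whole list), with Esrra (2.31), a nuclear receptor of mitochondrial genes, and Pdk4 (1.77, 7 members), a brake on glucose oxidation, among them. Ppargc1a, the mitochondrial coactivator, had 4 members and a difference of 0.34 that did not pass (adjusted p = 0.255, edgeR) but did without LSD1 label day 0 replicate 1 (adjusted p = 0.0125). Ucp1, the uncoupler of brown fat, had 1 member 11.8 kb away and too few counts to be tested.

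Insulin and cAMP signalling was linked for 12 of 18 genes (66.7%), with 108 members, the most of any list. The list was divided at day 7, with 8 higher and 6 lower of 18, and so were its linked genes: 6 were higher, with the phosphodiesterase Pde4d (2.89, 6 members) and the kinase Akt2 (1.88) among them, and 3 were lower: Irs1, an insulin receptor substrate (-1.64, 5 members), Pik3r1, and Adcy6, an adenylate cyclase (-0.76). Glucocorticoid and clock genes were linked for 5 of 18, 3 higher and 0 lower at day 7, where 12 of the 18 were higher and 1 lower. The 3 were Fkbp5, a glucocorticoid target (1.15), and the clock genes Per1 (0.96) and Cry2 (0.86).

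Preadipocyte and fibroblast genes were linked for 3 of 22 (13.6%), with Sparc, a matrix protein, lower (-1.38) and the factor Zfp423 higher (0.42, 5 members). In that list as a whole 19 were lower and 1 higher. Inflammation and interferon genes were linked for 5 of 23 (21.7%, near the 21.2% of all genes tested). Of these 4 were lower at day 7, as were 18 of the whole list, with complement C3 (-2.42), the chemokine Cxcl1 (-1.47) and Relb of the NF-κB family (-1.10). The factor Irf1 was higher by 0.41 ± 0.16 SE (adjusted p = 0.0424, edgeR), a call that did not pass in 9 of the 12 fits without single libraries, where adjusted p reached 0.162. Cell cycle genes were linked for 2 of 21 (9.52%), both lower, as were 15 of the list: Ccnd1, cyclin D1 (-4.51), and Aurkb, aurora kinase B (-2.67). LSD1 and its partners were linked for 6 of 20 (30%), with 2 higher and 3 lower (6 and 9 of the whole list). The call of Mta1, a NuRD subunit (0.32), was lost without LSD1 label day 7 replicate 2 or 3, control day 0 replicate 3 or control day 7 replicate 3, and that of the deacetylase Hdac2 (-0.28) in 9 of the 12 fits without single libraries. One of the lower was Kdm1a, whose single member lay 54.2 kb from its TSS, in an exon of Luzp1, with a score of 51.1. Another was Gse1, a subunit of the LSD1 complex with CoREST (-1.09, 5 members).

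Among linked genes the largest rise at day 7, by the rule for named genes, was that of Bco1. Bco1, which cleaves beta-carotene, had 2 members and a log2 difference of 7.73 at day 7, with 91.4 to 104.9 CPM in LSD1 label day 7 against 0.178 to 0.666 in control. It was followed by Adig, Cmbl (4.48), Scd3 (4.41), Rnf144b (4.10), Itga7 (3.86), Ppa1 (3.63), Itpk1 (3.56), Adora1 (3.55) and Mrap (3.43). Ppa1, the cytosolic pyrophosphatase, had 9 members and was at 125.4, 116.8 and 133.4 CPM in control day 7 and 1592, 1490 and 1583 in LSD1 label day 7. In all these genes the replicates did not overlap, as the naming rule required.

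The 10 largest falls, all but Cdh11 at genes with 1 member, were those of Kif26b (-6.72), Sned1 (-6.69), Fam83d (-6.20), Cdh11 (-5.95), Ogn (-5.19), Timp3 (-4.90), the noncoding RNA Dnm3os (-4.73), Fmod (-4.68), Ccnd1 and Gas6 (-4.41). Cdh11, a cadherin of mesenchymal cells, differed from the others in its peaks and had 3 members. Linked to Cdh11 were 8 peaks of the LSD1 label day 7 list, 27 of the LSD1 label day 0 list and 1 of control day 7. Its RNA was 402.4, 385.7 and 360.9 CPM in control day 7 and 6.07, 6.97 and 5.59 in LSD1 label day 7.

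Members at genes of opposite direction were compared in turn. The 1111 genes higher at day 7 in the LSD1 label held 2677 members (2.41 per gene) and the 856 lower genes 1617 (1.89 per gene). The median scores were 84.2 and 80.9, and the median TSS distances 8882 and 11432 bases. C/EBP letters were in 11.2% of the first and 13.0% of the second, and AP-1 letters in 10.0% and 14.3%, so neither motif was more frequent at the genes that were higher. Another copy was found for 1.91% and 9.34%. The remaining linked members were at genes not past the threshold (1454) or not tested (4988), and of the latter 16.9% had another copy.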

How the data were processed

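LSD1 binding was measured by ChIP-seq in 1 sample per group and RNA by RNA-seq in 3 libraries per group, on an Illumina instrument, with reads mapped to mm10 by bowtie 2, per the labels' protocols. The submitters' processing notes name Bowtie2, TopHat2, MACS 1.41, HOMER, DESeq 1.8.3 and edgeR, with no roles. The authors deposited peak lists with a score per peak, whose unit, input and cut-off are not given in the sources used here. They also deposited raw counts per RefSeq transcript. Transcripts were named from RefSeq or, for 177, from GENCODE. The 1200 of 30521 with no gene name (0.896% of counts) were kept, each as a gene of its own. These could not be linked to a member, and those that passed the filter count among the genes tested. The transcript with the highest mean count stood for each gene (24346, with the unnamed ones).

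From these files the members were rebuilt with pandas 2.3.3, with gene starts from all RefSeq transcripts and sequences from the GRCm38.p6 (mm10) RefSeq genome, read with pysam 0.24.0. Windows that touch an exon are not printed, which left out the top member at Hacd2. Motifs were searched on both strands; copies were searched with minimap2 2.31-r1302. Counts were fitted across all 12 libraries with edgeR 4.0.16 in R 4.3.3 (TMM, filterByExpr, robust quasi-likelihood, 4 groups, Benjamini-Hochberg adjustment at 0.05), and the scripts were tested on simulated data. The alternatives cover distance, overlap and score limits, gene link, normalization, DESeq2 1.42.0, filtering, a replicate block and single libraries left out. Titles call the libraries biological replicates without naming cultures, so p-values measure the spread between these libraries.

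Named genes were the 10 with most members, the 10 largest rises and falls between labels at day 7 and over time in the LSD1 label with a mean of at least 10 CPM and no overlap of replicates, up to 3 linked genes per list and direction, and fixed markers. The members and the gene lists were chosen with earlier results of these data known. Of the genes so named, 1 is not reported here.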

Additional observations from a re-analysis of the deposited data

Results flagged for a closer look

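In 4 of the named genes the changes from day 0 to day 7 passed the threshold in opposite directions in the 2 lines, past the interaction test of edgeR. How many of all genes tested do so is not given here. All 4 also differed between the labels at day 0, past the threshold. There C3 (1.865) and Cxcl1 (3.89) were higher in the LSD1 label, and Gas6 (-1.485) and Akt2 (-0.505) were lower, as log2 differences. C3, a complement component, fell by 0.73 on the log2 scale in the LSD1 label and rose by 3.55 in control, a difference of -4.29 (adjusted p = 8.31e-09). Cxcl1, a chemokine, changed by -2.97 in the LSD1 label and 2.39 in control, a difference of -5.36 (adjusted p = 8.56e-09). Gas6, a growth factor for the receptors Tyro3, Axl and Mer, changed by -2.34 and 0.59, a difference of -2.93 (adjusted p = 6.61e-08). Akt2, the insulin-responsive kinase, went the other way, with 1.60 in the LSD1 label and -0.78 in control, a difference of 2.38 (adjusted p = 1.38e-07).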

How the results depend on the processing

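The number of members was 8150 with a distance of 5 kb from a TSS, 12039 where a peak only had to miss the TSS itself, 10272 with no other LSD1 peak within 1 kb, 11290 where an overlap had to cover 50% of the peak, and 4140 with a score of at least 100, which left 1269 linked genes tested. Alternatives chosen after seeing the data gave 11755 members with curated RefSeq transcripts only and 9072 without the 43 full stretches. Linked genes higher at day 7 in the LSD1 label made up 43.0% at a score of at least 100, 39.9% without members that have another copy, 38.5% without the full stretches, 41.5% with a 20 kb link and 38.7% by gene body. For these settings the share of all genes tested stays at 30.2%. Linked genes higher made up 41.2% under DESeq2, where 4304 of all 13334 genes were higher. They made up 40.5% with RLE factors, where 4200 of all 13356 were. With no filter on low counts, where every gene with a count was tested, they made up 29.98%. The share of all genes is not given here for that fit or for the fits below. Leaving out single libraries gave 34.3% to 44.3% higher and 27.4% to 34.3% lower for this comparison, 41.2% to 47.9% and 28.8% to 33.2% for day 7 minus day 0 in the LSD1 label, and 28.8% to 40.3% and 19.02% to 29.6% in control. At day 0 the ranges were 8.20% to 22.3% higher and 11.1% to 29.3% lower; the cause was not tested. Same-numbered libraries did not deviate together (correlations from -0.25 to 0.11), and with the replicate block the shares higher and lower were 37.5% and 29.4% at day 7, 43.5% and 29.5% over time in the LSD1 label, 31.5% and 21.7% in control, and 11.1% and 15.0% at day 0. Of the log2 differences of named genes under these alternatives, 2500 kept their side of the threshold, 36 no longer passed and 10 newly passed. None changed direction where either fit passed. Changes of direction where neither passed were not counted apart. ChIP depth is unknown, so no limit for absent peaks can be given.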
